A study of Mus musculus with 2 samples.

Results

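Tac2-expressing inhibitory nuclei were selected among sorted nuclei of the dynorphin lineage by their own UMI counts (UMIs are molecular tags that count single transcript molecules). A nucleus counted as inhibitory with at least 2 UMIs in the sum of Gad1, Gad2, Slc6a5 and Slc32a1, the genes of GABA and glycine release, and none of Slc17a6, the vesicular glutamate transporter. Within that set, members had at least 2 Tac2 UMIs, no Pdyn UMI, fewer than 2 Gal UMIs and fewer than 20 Alk UMIs. There were 134 members among 7610 nuclei, and the other 3948 inhibitory nuclei served as the reference. Members were thus chosen by the counts of these 9 genes, which are given below as a description only.

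All mice carried 1 copy each of 2 alleles, Pdyn-IRES-Cre(+/-) and R26-LSL-Sun1.eGFP(+/-). Cre expressed from the prodynorphin locus switches on a GFP on the nuclear envelope permanently, so a sorted nucleus belonged to a cell with Cre activity at some time in life, whether or not it transcribed Pdyn when it was collected. Nuclei came from the dorsal part of lumbar segments L3-L5 of adult mice of either sex. The naive library pooled 8 littermates that had only received isoflurane on postnatal day 3, and the injured library pooled 8 mice whose left hindpaw had been incised on that day. Each condition was thus 1 pooled library, and no test between conditions was possible.

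Tac2 encodes the precursor of neurokinin B, a tachykinin peptide whose preferred receptor is NK3, the product of Tacr3. In the superficial dorsal horn, neurokinin B is best known as a marker of a set of glutamatergic interneurons. Inhibitory interneurons of the dorsal horn release GABA, glycine or both, limit the transmission of touch, itch and pain signals, and are commonly divided by their peptides and enzymes, among them dynorphin, galanin, neuropeptide Y, nociceptin and neuronal nitric oxide synthase.

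The libraries held 30602222 naive and 32934588 injured UMIs, with medians of 6955 and 8464 UMIs per nucleus. Members held 453221 and 775042 UMIs. Their median depth was 8051.5 naive and 8995 injured UMIs, above the 6905 and 8222 of the reference. Levels are given as CPM, the summed UMIs of a gene divided by all UMIs of that class and library (counts per 1e6). Intervals are exact at 95% and cover counting error only, not differences between mice or between nuclei. Xist and Y-linked UMIs occurred together, a sign of doublets or free RNA in pools of both sexes, in 4 naive (7.41%) and 7 injured members (8.75%), against 4.56% and 5.69% of the reference. No member shared a cell barcode with a nucleus of the other library.

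Of 2157 naive inhibitory nuclei 54 were members (2.50%, 1.89 to 3.25), and of 1925 injured ones 80 were (4.16%, 3.31 to 5.15). The share was higher in the injured library, whose nuclei were also deeper. With every nucleus thinned to 3000 UMIs, and 128 naive and 76 injured nuclei of any class below that depth left out, the shares were 1.67% (1.01 to 2.59) and 2.17% (1.33 to 3.33), and these intervals overlapped. In nuclei with Xist and no Y-linked UMIs the shares were 1.92% (1.26 to 2.80) and 3.71% (2.70 to 4.97), and in nuclei with Y-linked and no Xist UMIs 3.69% (2.35 to 5.48) and 4.83% (3.28 to 6.82). The injured share was the higher one in each of these sets, and the intervals overlapped in both.

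Tac2 (ENSMUSG00000025400, mm10 chromosome 10, 127724478 to 127731768, forward strand) was at 554 CPM (487 to 627) in naive and 422 CPM (377 to 470) in injured members. The reference held 8.76 and 6.44 CPM. In nuclei with oligodendrocyte markers and no transmitter genes, which should lack the gene, Tac2 was at 8.59 and 9.34 CPM on 1 and 2 UMIs, and none of them reached 2 Tac2 UMIs. These were 42 naive and 51 injured nuclei with median depths of 2197.5 and 2774 UMIs, far shallower than members. The counting intervals of these glial nuclei (0.218 to 47.9 and 1.13 to 33.7 CPM) are too wide to tell whether the reference lay above their level. The median number of Tac2 UMIs was 4 per naive and 3 per injured member, with maxima of 15 and 17. At the limit of the rule, 38 members held exactly 2 Tac2 UMIs and 26 held 3, while 129 other inhibitory nuclei held 1. A further 18 inhibitory nuclei had at least 2 Tac2 UMIs but passed a limit on another gene, 14 of them with Pdyn and 6 with at least 2 Gal UMIs.

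The transmitter genes, which are part of the rule, describe the members as mainly GABAergic with a glycinergic share. Gad1 or Gad2, the enzymes that make GABA, were detected in 52 of 54 naive (96.3%) and 77 of 80 injured members (96.3%). The reference was alike, with 91.7% of its naive and 92.7% of its injured nuclei. Slc6a5, the glycine transporter of glycinergic terminals, was detected in 25 naive (46.3%, 32.6 to 60.4) and 46 injured members (57.5%, 45.9 to 68.5), against 55.2% and 58.5% of the reference. Slc6a5 stood at 86.1 and 108 CPM in members and at 139 and 146 CPM in the reference. Slc32a1, the vesicular transporter of both transmitters, was at 101 CPM (74.3 to 135) in naive and 54.2 CPM (39.1 to 73.3) in injured members. The reference showed a smaller step in the same direction, from 87.6 to 60.6 CPM.

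Of identity genes outside the rule, Pax2, the transcription factor of dorsal horn inhibitory neurons, stood at 225 and 200 CPM in naive and injured members and at 197 and 200 CPM in the reference (log2 fold change 0.05, edgeR adjusted p = 0.871). Lmx1b, a factor of dorsal horn glutamatergic neurons, had 0 naive and 3 injured UMIs in members (0 and 3.87 CPM). In nuclei that carried Tac2 together with Slc17a6 it was at 161 and 170 CPM. Tlx3, a second glutamatergic factor, had 1 naive UMI and 0 injured UMIs in members. These 3 genes do not stand for the whole lists. The summed transcripts of 20 excitatory identity genes were at 4795 and 4758 CPM in members, above the reference (3400 and 3346 CPM) and above Tac2-expressing excitatory nuclei (3411 and 3188 CPM). Ebf1, which inhibitory nuclei of the reference also held at 2586 and 2564 CPM, made up 3740 and 3796 CPM of the sum in members.

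All inhibitory nuclei, members and reference together, were also clustered without the 9 genes of the rule, a step added after the data had been seen. Of the 134 members, 123 (91.8%) fell in 1 of 22 clusters, numbered 5. That cluster held 112 naive (5.19% of inhibitory nuclei, 4.29 to 6.21) and 122 injured nuclei (6.34%, 5.29 to 7.52), whose intervals overlapped. Its leading genes were Il1rapl2, Adamts9, Erbb4, Adcy2, Gcnt2, Bcam, Pde1c, Rasa4, Jag1 and Sorcs2. Members thus lay mostly together in a clustering that did not use the genes of the rule.

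**Figure D1:**
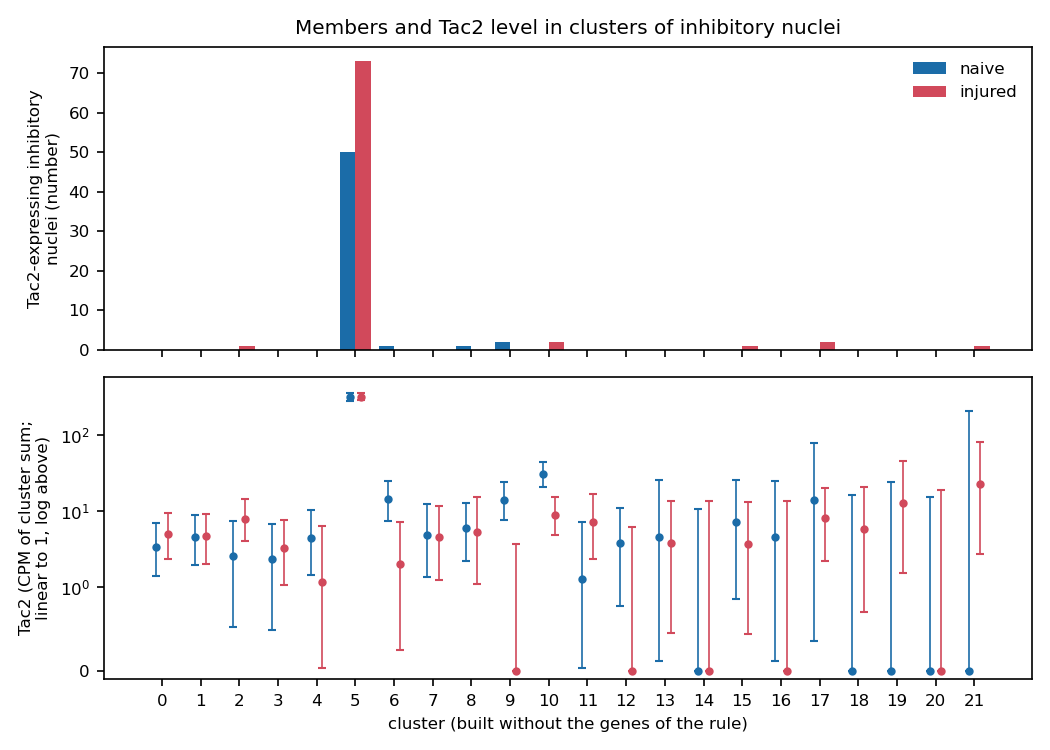
Number of members (top, bars) and Tac2 level of the whole cluster in CPM with exact 95% counting intervals (bottom, points) in 22 clusters of inhibitory nuclei, naive in blue and injured in red. Cluster 5 holds 123 of 134 members and stands at 319 and 325 CPM, and every other cluster has a point estimate of at most 31.2 CPM.

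Tac2 was not seen in every nucleus of cluster 5. It was at 0 in 73 nuclei, at 1 in 25, and at 2 or more in 13 that exceeded a limit on Pdyn, Gal or Alk. The reference held 138 naive and 108 injured Tac2 UMIs, and 74 of them were in these 13 nuclei. Inhibitory nuclei of other clusters with fewer than 2 Tac2 UMIs held 104 (3.30 CPM). Across the cluster Tac2 stood at 319 naive and 325 injured CPM, so the difference seen between naive and injured members was not seen in the cluster as a whole. The nuclei without a Tac2 UMI, with a median depth of 7484 UMIs against 8676 for members in the cluster, shared part of the profile. They had been placed in cluster 5 by transcripts outside the rule. Their likeness to members was thus largely built in by the clustering, and their levels are a description. These nuclei held 683 CPM of Il1rapl2 against 1196 in members of the cluster and 94.2 in other clusters, and 1302 CPM of Rorb against 1612 and 457. Btn2a2 was at 6.71 CPM on 4 UMIs in them and at 31.8 CPM in members of the cluster. Tcf7l1 was at 3.36 CPM on 2 UMIs and at 36.3 CPM. In other clusters Btn2a2 was at 0.222 CPM. Other genes with large increases in members were nearer to the member level in these nuclei, such as Kcnj5 (21.8 against 25.4 CPM), Bcam (43.6 against 49.0) and Jag1 (47.0 against 39.0).

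The 11 members outside cluster 5 were 4 naive and 7 injured nuclei with a median of 13693 UMIs. They were deeper than the members of cluster 5 (median 8676 UMIs) and some of them held glial transcripts. Mobp, a myelin gene, was detected in 18.2% of them and was at 78.9 CPM in them against 0.908 CPM in members of cluster 5. Slc4a4, which is high in astrocytes, was detected in 27.3% of them and was at 166 and 0.908 CPM. The 4 naive nuclei among them held 2 UMIs of oligodendrocyte markers (45.7 CPM), less than the naive members of cluster 5 (83.0 CPM). Of these 11, 2 injured nuclei lay in a cluster led by oligodendrocyte genes such as Mog and Mag, and 1 in a cluster led by Slc4a4 and Aqp4. They are members by the rule and are included in all values unless stated.

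Members with few and with many Tac2 UMIs had similar levels of Il1rapl2. With 2, with 3 or 4, and with at least 5 Tac2 UMIs, Il1rapl2 stood at 1121, 1138 and 1117 CPM and Rorb at 1589.8, 1479.7 and 1774 CPM. Tcf7l1 was at 17.2, 22.3 and 67.1 CPM on 6, 10 and 29 UMIs, and Gad1, a gene of the rule, at 141, 136 and 224 CPM.

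Members were compared with the reference by edgeR's quasi-likelihood test on UMIs summed per class and library, with the library as a block. This asks which other transcripts distinguish the Tac2-expressing nuclei from the remaining inhibitory nuclei of the lineage. Among 14933 genes, 835 were higher in members (5.59%) and 918 were lower (6.15%) at an adjusted p (Benjamini-Hochberg) of 0.05, and the median log2 fold change over all of them was -0.04. The replicates were the 2 pooled libraries, which differ in condition, and both classes of a library shared mice and preparation. With the library as a block, these 2 libraries give little information on the spread of a single gene, and edgeR shares estimates of spread across genes. The standard errors (SE) and p-values thus need not follow how far a gene's contrast differed between the libraries. For Erbb4, described below, the log2 fold change was 3.36 (naive) and 2.79 (injured), with an SE of 0.0797. For Htr2c, also described below, it was 1.33 and 1.33, with an SE of 0.0780. The p-values do not measure differences between mice or between nuclei. DESeq2 called 343 and 385 genes, all of them also called by edgeR in the same direction.

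Among the 12 genes with the largest increases was Btn2a2, a butyrophilin of the immunoglobulin superfamily (ENSMUSG00000053216, mm10 chromosome 13, 23477676 to 23488857). It was at 30.9 CPM in naive and 31.0 in injured members, against 0.317 and 0.596 CPM in the reference. Its log2 fold change was 5.98 (SE 0.54, edgeR adjusted p = 1.13e-26), and it was detected in 22.2% and 22.5% of members but in 0.238% and 0.488% of reference nuclei. Both libraries thus showed the same level and the same contrast. Il1rapl2, an X-linked relative of the interleukin-1 receptor accessory protein (ENSMUSG00000059203, chromosome X, 137570608 to 138846946), was the most abundant of the 12 named genes. It was at 1061 and 1164 CPM in members and at 93.5 and 136 CPM in the reference, with a log2 fold change of 3.25 (SE 0.08).

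The other 10 genes with the largest increases had log2 fold changes from 3.29 to 4.71. They were Kcnj5 (4.71), a G protein-gated inward rectifier potassium channel, Itgb5 (4.19), an integrin subunit, Tcf7l1 (3.96), a transcription factor of the Wnt pathway, and Bcam (3.84), a laminin-binding adhesion molecule. Jag1 (3.70) is a ligand of Notch receptors, Ednra (3.69) is the endothelin A receptor, and Adamts9 (3.58) is a secreted metalloprotease. Gcnt2 (3.40) is a glycosyltransferase, Rasa4 (3.35) a Ras GTPase activator and Car12 (3.29) a carbonic anhydrase. Ednra was at 24.3 and 45.2 CPM in naive and injured members and at 2.86 and 2.62 CPM in the reference. It was detected in 16.7% and 28.75% of members and in 1.66% and 2.01% of reference nuclei, so most members held no UMI of it. A member held UMIs of a median of 4 of these 12 genes, and a reference nucleus of a median of 0. The 12 genes were picked from these same nuclei, so the medians are a description only.

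**Figure D2:**
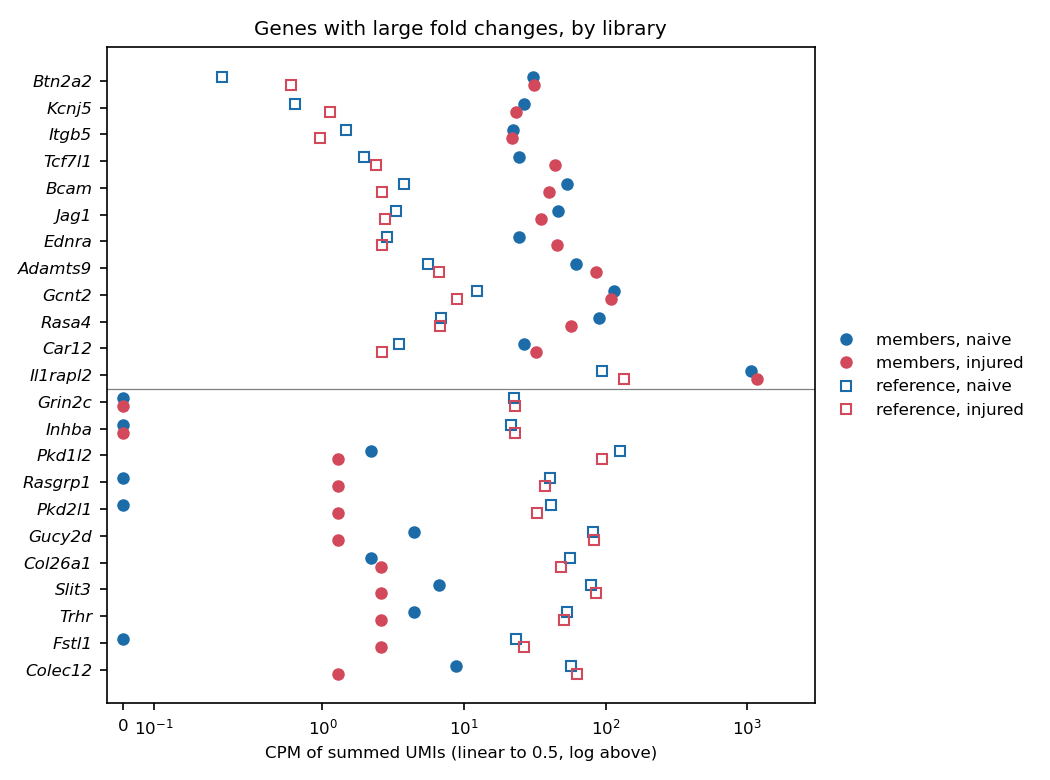
CPM of summed UMIs in members (filled circles) and reference (open squares) for the naive (blue) and injured (red) library, on an axis that is linear to 0.5 and logarithmic above. The 12 genes with the largest increases lie above the line and 11 genes with large decreases below it. Members and reference are separated in both libraries for each gene, in the direction that the choice of genes required.

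Among the genes with the largest decreases, Grin2c, an NMDA receptor subunit, and Inhba, the activin beta A subunit, had no UMI in members. Grin2c was at 22.5 and 23.0 CPM in the naive and injured reference and Inhba at 21.4 and 23.1 CPM. Against a floor of 3 UMIs over all members, 2.44 CPM, Grin2c was at least 9.31-fold and Inhba at least 9.11-fold lower. Both were called by edgeR (adjusted p = 7.96e-11 and 1.25e-10) but not by DESeq2 (adjusted p = 0.724 and 0.730).

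Pkd1l2 (-6.03) and Pkd2l1 (-5.46) are channel genes of neurons that contact the cerebrospinal fluid. Of 6 tested markers of those neurons 3 were lower (6.15% over all genes). The reference contains such neurons, with Pkd1l2 at 125 and 93.7 CPM, while members held 1 UMI of it in each library. The remaining decreases were Rasgrp1 (-5.56), a Ras exchange factor, Gucy2d (-5.09), a receptor guanylyl cyclase, Col26a1 (-4.41), a collagen, and Slit3 (-4.37), an axon guidance ligand. Trhr (-4.01) is the receptor of thyrotropin-releasing hormone, Fstl1 (-3.98) a follistatin-like secreted protein and Colec12 (-3.91) a scavenger receptor. None of the genes named here for the largest changes changed direction under any of the alternative fits, and 3 calls were lost: Grin2c and Inhba in DESeq2, and Kcnj5 with a Tac2 minimum of 5 (edgeR adjusted p = 0.0753).

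For the neuropeptide list the median log2 fold change was -0.49. Of its 19 tested genes, 2 were higher (5.59% over all genes) and 6 were lower (6.15%). Those lower were Nxph4, Vgf, Calca, Pnoc, Nxph1 and Chgb. Pnoc, the nociceptin precursor, was at 22.1 and 23.2 CPM in naive and injured members and at 106 and 76.8 CPM in the reference (log2 fold change -1.97, SE 0.22, edgeR adjusted p = 6.14e-17). Penk, the enkephalin precursor, was at 44.1 and 24.5 CPM against 63.4 and 37.0 CPM and did not pass the test (adjusted p = 0.0810), although it did against a reference with the same limits on Pdyn, Gal and Alk and no Tac2 UMI (log2 fold change -0.75, adjusted p = 0.0104). Vgf, a granin-like precursor, was lower (-2.51). Scg2, a secretogranin of dense-core vesicles, was higher at 706 and 519 CPM against 541 and 407 CPM (0.34), and Nxph2, a neurexophilin, was higher (1.56).

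Cartpt, the precursor of the CART peptide, differed between the libraries. It was at 53.0 CPM (24 UMIs) in naive and 20.6 CPM (16 UMIs) in injured members, against 36.3 and 43.5 CPM in the reference. The counting interval of naive members (33.9 to 78.8 CPM) included the reference level, and that of injured members (11.8 to 33.5 CPM) lay below it. The test over both libraries did not pass (-0.32, edgeR adjusted p = 0.492). Against the reference with the same limits as the members it was called higher, at 1.33 (adjusted p = 0.000146).

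For the tachykinin receptors, Tacr3 was lower in members, at 22.1 and 7.74 CPM on 10 and 6 UMIs against 87.9 and 82.9 CPM in the reference (log2 fold change -2.72, SE 0.26, edgeR adjusted p = 2.87e-23). Members, selected for the peptide precursor, thus held less transcript of its receptor than the reference in both libraries. Tacr1, the substance P receptor, had only 1 and 2 UMIs in members.

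Among 30 tested receptors for other neuropeptides, 2 were higher (5.59% over all genes) and 9 lower (6.15%), with a median of -0.91. The endothelin receptor gene above and Npy1r, a neuropeptide Y receptor (28.7 and 15.5 against 10.8 and 9.004 CPM, 1.05), were higher. The lower ones included Hcrtr2, an orexin receptor (-1.99), the corticotropin-releasing hormone receptor Crhr1 (-2.70), the somatostatin receptors Sstr1 (-3.54) and Sstr2 (-2.25), and Oprm1, the mu opioid receptor. Oprm1 stood at 79.4 and 65.8 CPM in naive and injured members and at 136 and 125 CPM in the reference (-0.89, SE 0.15). Npffr2 and Nmbr, receptors for neuropeptide FF and neuromedin B, had no UMI in members, which put them at least 3.93-fold and 2.14-fold below the reference.

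Of 29 genes used to name other inhibitory subtypes 14 were lower (6.15% over all genes), 3 were higher (5.59%) and 12 were not called. The median was -1.37, or -1.31 with genes at 0 in members set to their bound. DESeq2 called 9 of them lower and 2 higher. The list was chosen with earlier results of these data known, so the counts are a description. Nos1, neuronal nitric oxide synthase, was at 13.2 and 6.45 CPM against 85.1 and 55.4 CPM (-2.92). Erbb4, a receptor tyrosine kinase for neuregulins, was higher at 2506.5 and 2405 CPM in naive and injured members against 243 and 348 CPM (3.04, SE 0.08, edgeR adjusted p = 3.43e-299). Rorb, a nuclear receptor that marks a set of dorsal horn inhibitory interneurons, was higher at 1668 and 1583 CPM against 449 and 515 CPM (1.72, SE 0.08). The third higher gene was Rspo3, a Wnt agonist (0.49). Pde11a, a phosphodiesterase, depended on the reference, with -0.39 in the main comparison and 0.60 against the reference with the same limits.

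Among transcription factors of inhibitory neurons, Gbx1 (0.79) and Sall3 (0.53) were higher beside Rorb. Of the 21 genes tested in that list, 3 were thus higher (5.59% over all genes) and 7 lower (6.15%). Pax8 was at 81.6 and 91.6 CPM against 177 and 191 CPM (-1.10). Of the list for excitatory neurons, 6 of 16 were higher (5.59% over all genes) and 3 lower (6.15%). The higher ones included Prrxl1, a homeodomain factor (19.9 and 25.8 against 6.98 and 6.20 CPM, 1.82), Cpne4 (1.17), Ebf1 (0.52), Ebf3 (0.24) and Car12. The list's defining transporter Slc17a6 was at 0 by the rule, Slc17a8 had no UMI in members, and Lmx1b and Tlx3 were near 0 as given above.

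Among the lists with at least 6 tested genes, receptors for GABA and glycine had the largest share of higher genes. Of 19 tested, 10 were higher (5.59% over all genes) and 2 lower, with a median of 0.58. Without a filter on low counts 9 of 22 were higher and the median was 0.30. Gabrb1, a beta subunit of the GABA-A receptor, was at 1273 and 1439 CPM in naive and injured members and at 283 and 318 CPM in the reference (2.15, SE 0.08, edgeR adjusted p = 4.77e-152). Gabra4 was at 75.0 and 60.6 against 15.3 and 13.1 CPM (2.22, SE 0.24). The glycine receptor subunits Glra1 (0.64), Glra2 (0.78) and Glra3 (0.84) and the GABA-B subunit Gabbr2 (0.67) were also higher, as were Gabra2 (0.51) and Gabrb2 (0.58). Gabrg1 (-0.90) and Gabrg3 (-0.73) were lower. Against the reference with the same limits, 8 were higher and 3 lower, and Gabrb2 was not called (edgeR adjusted p = 0.407).

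Glutamate receptors went the other way more often. Of 18 ionotropic subunits 3 were higher and 8 lower (median -0.44), and of 6 metabotropic receptors 3 were lower. Over all genes tested, 5.59% were higher and 6.15% lower. Against the reference with the same limits, 2 of the 6 metabotropic receptors were higher and 3 lower. Gria3 was at 66.2 and 107 CPM in members against 343 and 338 CPM (-1.93), Grik1 at 143 and 142 against 488 and 461 CPM (-1.75), and Grin2a at 55.2 and 102 against 201 and 229 CPM (-1.41). The higher ones were the AMPA subunit Gria1 (0.41), the kainate subunit Grik2 (0.72) and Grid1 (0.67). Grik2 was at 3005 and 3605 CPM in members and at 1858 and 2059 CPM in the reference. Grid1 was not called against the reference with the same limits (0.25, adjusted p = 0.137).

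Among monoamine and acetylcholine receptors 2 of 26 were higher (5.59% over all genes) and 5 lower (6.15%). Htr2c, a serotonin receptor, was at 1608 and 1894 CPM in naive and injured members against 641 and 754 CPM (1.30, SE 0.08). Adra1a, an alpha-1 adrenergic receptor, was at 304 and 314 against 98.1 and 107 CPM (1.56, SE 0.10, edgeR adjusted p = 2.01e-48). Drd2, the D2 dopamine receptor, had no UMI in members and was at least 7.56-fold below the reference.

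Of 47 potassium and HCN channel genes 8 were higher (5.59% over all genes) and 16 lower (6.15%). Kcnip4, an auxiliary subunit of A-type potassium channels, was at 2853 and 1924 CPM in naive and injured members against 14856 and 15393 CPM (-2.72, SE 0.09). Kcnh7, a channel of the erg family, was higher, at 1033 and 1148 against 485 and 516 CPM (1.10). Sodium and calcium channels split evenly, with 6 higher (5.59% over all genes) and 6 lower (6.15%) of 26. All 12 changes were below 1 on the log2 scale.

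Axon guidance and adhesion genes changed in both directions. Of 39 guidance genes 7 were higher and 19 lower (median -0.63), and of 46 adhesion genes 12 were higher and 21 lower (median -0.25). Over all genes tested, 5.59% were higher and 6.15% lower. Sema6d, a transmembrane semaphorin, was higher (1.72). Sema5a was at 28.7 and 11.6 CPM against 258 and 264 CPM (-3.89), Efna5, an ephrin, was at -2.86 and the netrin receptor Unc5c at -2.09. Contactins showed opposite changes: Cntn5 was at 2946 and 3611 against 767 and 934 CPM (1.92), while Cntn4 was at 128 and 161 against 999.7 and 1029 CPM (-2.81). Cntnap4 (1.89) and Lrrtm3 (1.56) were higher, and Opcml (-2.60) and Tenm3 (-2.44) were lower. Of all 195 listed genes that were called, 193 had the same sign in both libraries, the exceptions being the cadherin gene Cdh9 and Fos. The calls rest on these same 2 libraries, so this agreement was largely built into them and is no separate support.

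**Figure D3:**
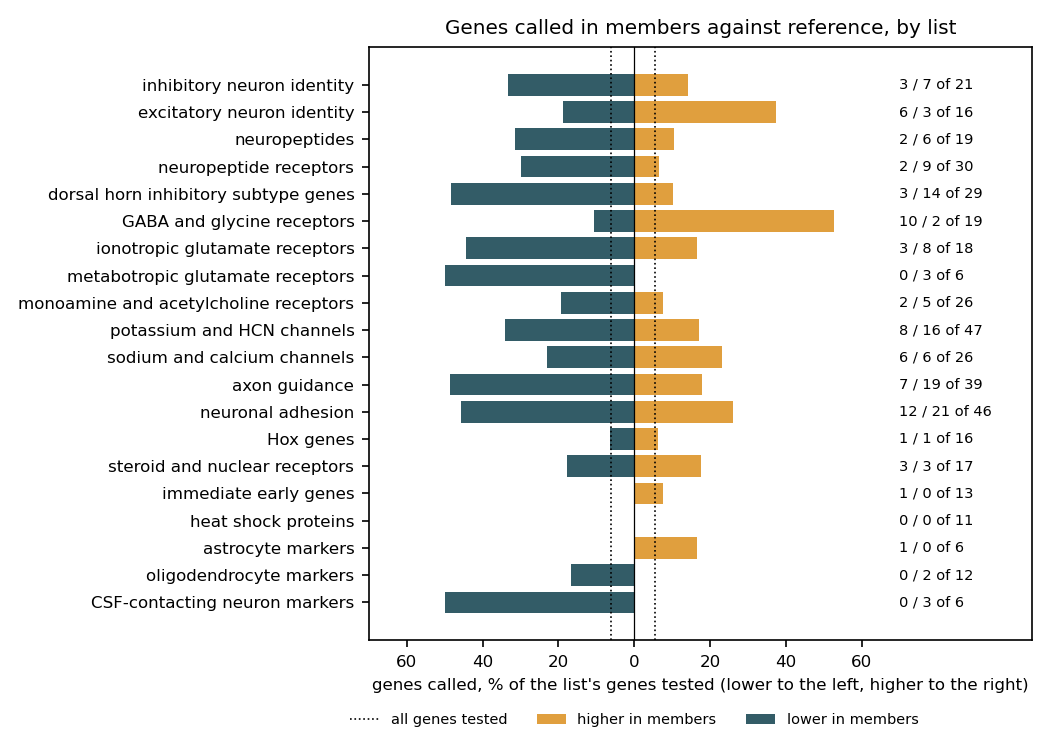
Share of each list's tested genes called higher (orange, right) or lower (dark, left) in members against reference by edgeR, with the counts at the right, for the 20 lists with at least 6 tested genes. Dotted lines give the shares over all genes tested, 5.59% higher and 6.15% lower, and the GABA and glycine receptor list has the longest bar to the right (10 of 19).

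Fos, an activity-dependent gene, was the 1 of 13 immediate early genes that was called (1.65, edgeR adjusted p = 0.00997). Members held 2 naive and 15 injured UMIs of Fos, and 13 of the 15 were in 1 nucleus. With at least 5 inhibitory UMIs required, the log2 fold change was -0.67. The call was also lost at similar fold changes in DESeq2 (1.35, adjusted p = 0.689) and without the block (1.59, edgeR adjusted p = 0.0609), and with a Tac2 minimum of 1 (1.17, edgeR adjusted p = 0.0911). A fit without that nucleus was not made. Cdh9 was lower (-0.99), but 21 of its 22 naive UMIs were in the 4 naive members outside cluster 5. Of 11 heat shock genes none was called.

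Among markers of other cells, Slc1a2, an astrocyte glutamate transporter that neurons transcribe at low levels, was higher in members (1.16), and the oligodendrocyte genes Mbp (-0.70) and St18 (-0.74) were lower. Of 6 tested astrocyte markers 1 was called, and 2 of 10 astrocyte markers had no UMI in members. Lhfpl3 (1.53) was higher and Tnr (-1.65) lower in the list of oligodendrocyte precursors, of which 4 of 8 markers were at 0. No gene of the microglia, endothelial, ependymal, cholinergic or Schwann cell lists was called. The part of glial RNA in the differences between members and reference was not tested.

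Because neurokinin B is better known from glutamatergic neurons, Tac2-expressing nuclei were also contrasted within the excitatory nuclei. These had at least 2 Slc17a6 UMIs and fewer than 2 inhibitory UMIs. This contrast was added after the data had been seen. It required at least 2 Tac2 UMIs but, unlike the rule for members, set no limit on Pdyn, Gal or Alk. Pdyn was detected in 30.8% of naive and 29.6% of injured Tac2-expressing excitatory nuclei, and in no member. Gal was at 90.7 and 48.6 CPM in these excitatory nuclei, against 13.2 and 16.8 CPM in members. There were 66 Tac2-expressing excitatory nuclei, 39 of 556 naive (7.01%) and 27 of 530 injured excitatory nuclei (5.09%). Their Tac2 level was 382 and 404 CPM. Among 12394 genes, 352 were higher (2.84%) and 409 lower (3.3%) than in the other 1020 excitatory nuclei. The 2 contrasts have no nuclei in common but come from the same libraries. Their overlap and differences, given below, thus compare Tac2 classes with unlike limits.

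The profiles overlapped in part. Of the 835 genes that were higher in Tac2-expressing inhibitory nuclei, 100 (11.98%, or 28.4% of the excitatory list) were also higher in the excitatory ones. Of the 918 lower genes, 184 (20.04%, or 44.99%) were also lower there. In opposite directions, 50 genes (5.99%, or 12.2% of the excitatory list) were higher in the inhibitory and lower in the excitatory contrast. Another 80 (8.71%, or 22.7%) went the reverse way. Over all genes tested, 5.59% were higher and 6.15% lower in the inhibitory contrast, and 2.84% and 3.3% in the excitatory one. The difference between the contrasts itself passed the test (edgeR, adjusted p of 0.05) for 916 of 13312 genes (6.88%).

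Of the genes higher in both, Col15a1, a basement membrane collagen (log2 fold change 2.78 in inhibitory and 2.73 in excitatory nuclei), the prolactin receptor gene Prlr (2.31 and 2.27), Pde1c, a calmodulin-dependent phosphodiesterase (2.96 and 2.19), and the prostaglandin E receptor gene Ptger3 (2.02 and 1.95) had the largest values in the smaller of the 2 contrasts. Pde1c was at 377 and 374 CPM in naive and injured members against 47.6 and 46.9 CPM in the reference. In Tac2-expressing excitatory nuclei it was at 346 and 389 CPM, against 70.6 and 93.6 CPM in the other excitatory ones. Zfp521, a zinc finger transcription factor, also had a similar level in both Tac2 classes, at 313 and 294 CPM in the inhibitory and 334 and 419 CPM in the excitatory one.

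Several leading genes of the inhibitory members were not shared. Erbb4 was at 246 and 131 CPM in Tac2-expressing excitatory nuclei and 254 and 319 CPM in the others (-0.57, adjusted p = 0.0629), and the difference from the inhibitory contrast was 3.65. Il1rapl2 had 4 naive and 0 injured UMIs in Tac2-expressing excitatory nuclei, against 95.5 and 182 CPM in the others. Cntn5 (1.92 and -2.24), Abi3bp (2.45 and -2.35) and Htr2c (1.30 and -1.89) were higher with Tac2 in inhibitory and lower with Tac2 in excitatory nuclei. Sema5a (-3.89 and 0.51) and Nell2 (-2.36 and 1.41) changed in the reverse way.

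**Figure D4:**
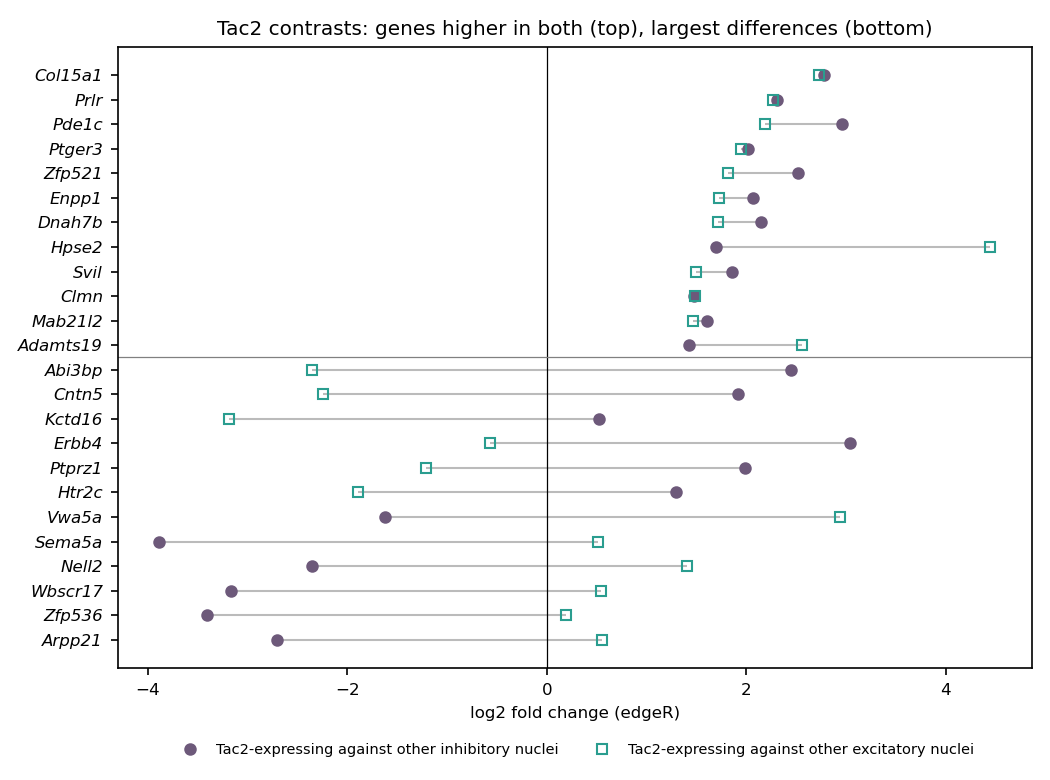
Log2 fold changes of Tac2-expressing against other inhibitory nuclei (filled circles) and of Tac2-expressing against other excitatory nuclei (open squares). The 12 genes above the line were higher in both contrasts, and the 12 below it had the largest tested differences between them among genes with at least 20 UMIs in each class, such as Erbb4 at 3.04 and -0.57.

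The second axis of the study was the neonatal incision. With 1 library per condition, ratios of injured over naive CPM in members are a description. Among 2230 genes with at least 100 UMIs in members and detected in at least 10% of members of 1 library, 44 had a ratio of at least 1.5 (1.97%) and 42 a ratio of at most 1/1.5 (1.88%). In the reference, with far more nuclei, 3 (0.135%) and 5 (0.224%) of the same genes did. The log2 ratios of members had an SD of 0.272, where counting error alone gives 0.222, and 0.138 in the reference. The counting interval excluded a ratio of 1 for 280 of the 2230 genes (12.6%).

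The highest ratios in members were those of Npas3, a bHLH-PAS transcription factor (2.18, 1.51 to 3.23), Col5a2, a fibrillar collagen (2.04, 1.39 to 3.06), Plxna2, a semaphorin receptor (1.92, 1.35 to 2.76), and Grin2a (1.85, 1.17 to 3.02). Col5a2 went from 77.2 CPM (35 UMIs) to 157 CPM (122 UMIs) in members and from 20.9 to 20.3 CPM in the reference. Plxna2 went from 94.9 to 182 CPM in members and from 237 to 228 CPM in the reference. Npas3 was also higher in the injured reference (1.60, 1.49 to 1.71). Slc24a2 (1.82), Arhgap6 (1.78), Opcml (1.77), Nxph2 (1.75), Mphosph8 (1.75) and Cfap36 (1.73) followed.

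The lowest ratios were those of Srsf2, a splicing factor (0.404, 0.273 to 0.595), and Itm2c (0.520, 0.386 to 0.700). Srsf2 went from 150.04 CPM (68 UMIs) to 60.6 CPM (47 UMIs) in members and from 91.2 to 84.3 CPM in the reference. Itm2c was lower in the reference as well (0.650). The others were Cntnap5c (0.533), Plekha6 (0.551), Fbxo36 (0.566), Arl6ip1 (0.585), Stmn3 (0.590), Nrg1 (0.602), Apba1 (0.603) and Serpinb1b (0.606).

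The members outside cluster 5 weighed on some of these ratios. Nrg1 encodes a neuregulin, a ligand of the receptor Erbb4. It was at 843 CPM in naive and 507 CPM in injured members, but 198 of its 382 naive UMIs were in the 4 naive members outside cluster 5. In members of cluster 5, a restriction added once the data were known, Nrg1 was at 449 and 457 CPM, a ratio of 1.02. Cntnap5c likewise had a ratio of 1.12 there and Npas3 one of 1.28, with 60 of its 138 injured UMIs in the 7 injured members outside the cluster. Col5a2 (1.98), Plxna2 (1.93), Grin2a (1.86) and Srsf2 (0.394) had similar ratios within cluster 5. The ratio of Grin2a was 0.964 with a Tac2 minimum of 1 and 1.01 in nuclei with Y-linked and no Xist UMIs.

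**Figure D5:**
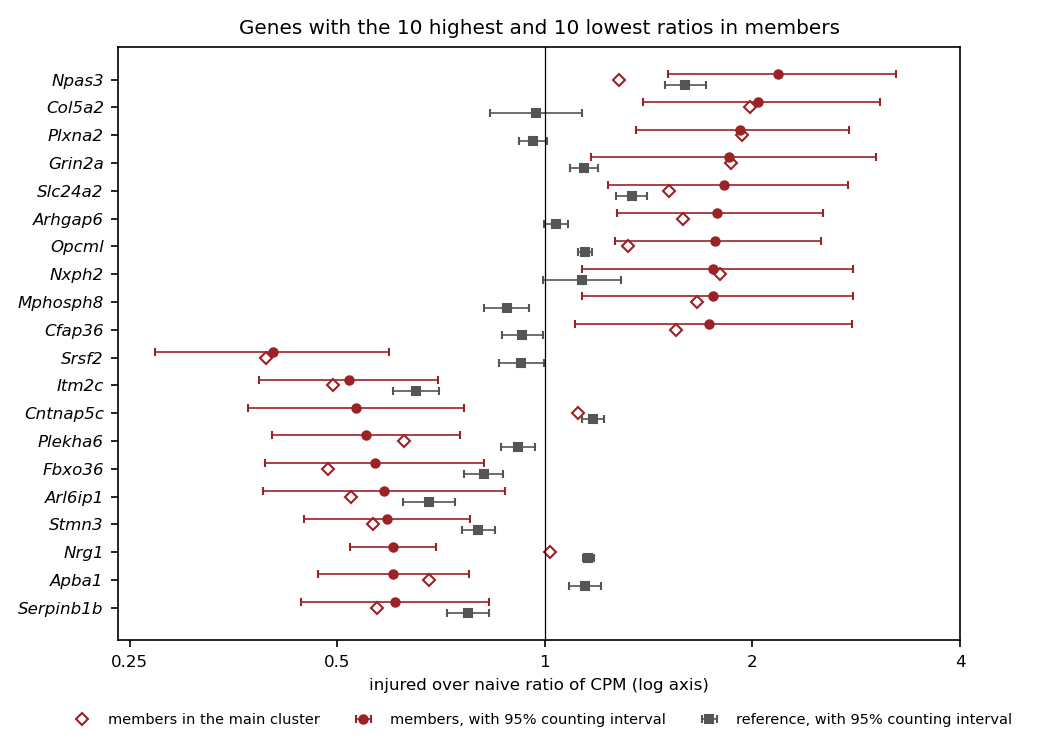
Ratio of injured over naive CPM on a log axis for the 10 genes with the highest and the 10 with the lowest ratios in members (filled circles, with 95% counting intervals), the same ratio in members of cluster 5 (open diamonds) and in the reference (squares, with intervals). For Nrg1, the member ratio is 0.602, that within cluster 5 is 1.02 and that of the reference is 1.16.

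By list, transcripts of ribosomal proteins were lower in injured members, with a summed ratio of 0.737 (0.687 to 0.790) that lay near the 0.776 of the reference. Heat shock transcripts had a ratio of 0.854 (0.748 to 0.977) in members and 0.816 in the reference. Of 38 measured adhesion genes 33 had a ratio above 1 in members, where 53.1% of all measured genes did, and of 24 measured potassium and HCN channel genes 20 did. Their summed ratios, 1.09 and 1.03, lay near those of the reference, 1.09 and 1.05. The summed immediate early transcripts had a ratio of 1.35 (0.932 to 1.97) in members and 0.669 in the reference, with the Fos UMIs of the 1 nucleus among them. Scg2 had a ratio of 0.735 (0.633 to 0.853), and its level also fell in the reference, from 541 to 407 CPM.

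Oligodendrocyte transcripts moved with the condition in members: 36 naive and 170 injured UMIs of 12 markers gave a summed ratio of 2.76 (1.92 to 4.07), against 1.55 in the reference. The 7 injured members outside cluster 5 held 109 of the 170 UMIs. Within cluster 5 the ratio was 1.06, on 34 and 61 UMIs. Astrocyte markers had a ratio of 1.60 in all members and of 1.15 within cluster 5.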

How the data were processed

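Single-nucleus RNA was measured in 1 naive and 1 injured library (10x Genomics 3' v3), each a pool of 8 mice. Per the submitters' processing notes, Cell Ranger 3.0.2, Seurat and the build mm10 were used; how nuclei were filtered, the annotation and the use of intronic reads: not given in the sources used here.

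Raw UMI counts were deposited by the authors; they cover 19575 genes in 7610 nuclei and gave all main values. They also deposited natural log values, ln(1 + 10000 times the count over the nucleus total), used only in an alternative. Gene positions come from the GENCODE annotation of mm10.

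Counts were summed per class and library. Members and reference were compared with edgeR 4.0.16 (filterByExpr, TMM, quasi-likelihood test, library as a block, Benjamini-Hochberg over all genes), after the script had been tested on simulated data. The 9 genes of the rule stayed in the fit and its adjustment but out of all counts of calls. Levels have exact Poisson, shares exact Clopper-Pearson and ratios exact conditional binomial intervals at 95%. Clusters were made in scanpy 1.11.5 (2000 variable genes without those of the rule, Xist, Y-linked and mitochondrial genes, 30 components, 15 neighbours, Leiden resolution 1.0). Doublets were not removed. Named genes are the 12 highest and 12 lowest fold changes among called genes with at least 20 CPM in the higher class and 1 direction in both libraries, and the 10 highest and 10 lowest ratios, without predicted, mitochondrial, ribosomal protein, Y-linked and X-inactivation genes. From each list, called genes or the 4 highest levels could be named. Genes shared by both contrasts are the 12 with the largest smaller fold change and at least 20 CPM in both Tac2 classes; genes that differ are 6 in each direction with at least 20 UMIs in each class, a minimum set after a first ranking was led by genes at 0. Clusters, the excitatory contrast, the test of the difference between contrasts and the naming rules for them were added after the data had been seen, and the members and lists were chosen with earlier results of these data known. Alternatives changed the normalization, filter, tool, block, member and reference limits, depth, doublet signs and weights. 3 barcodes occurred in both libraries, none of them in members. Some genes that the naming rule selects are not reported here.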

Additional observations from a re-analysis of the deposited data

Results flagged for a closer look

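For 6 genes among the 20 with the highest and lowest ratios and the peptides and peptide receptors outside the rule, the ratio of injured over naive CPM lay on opposite sides of 1 in members and reference, each with a counting interval that excluded 1; the difference between the classes was not tested, since each condition is 1 library. Mphosph8, a chromatin protein of heterochromatin, had a ratio of 1.75 (1.13 to 2.80) in members and 0.881 (0.817 to 0.950) in the reference. Cfap36 had 1.73 (1.11 to 2.79) and 0.928, and its log2 ratio was -0.68 in nuclei with Y-linked and no Xist UMIs. Cntnap5c had 0.533 (0.372 to 0.764) and 1.17, and Nrg1 had 0.602 (0.521 to 0.694) and 1.16; both were above 1 within cluster 5. Apba1, an adaptor of synaptic vesicle release, had 0.603 (0.469 to 0.775) and 1.14, and 0.679 within cluster 5. Cartpt had 0.390 (0.194 to 0.765) and 1.20, on 24 and 16 UMIs in members. The intervals cover counting error only and leave out that a few nuclei can carry many UMIs of a gene.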

How the results depend on the processing

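The count of genes higher in members, 835, was 343 with DESeq2, 229 with a Tac2 minimum of 5 and 514 with at least 5 inhibitory UMIs, and the count of lower genes, 918, was 385 with DESeq2 and 345 with a Tac2 minimum of 5; the other alternatives gave 600 to 951 higher and 646 to 1025 lower genes. Fewer nuclei entered under the stricter limits (45 and 76 members); the cause of the DESeq2 counts was not tested. With no replicate block 638 and 735 genes were called, so the block on the library changed neither count by more than 1.5 times. No paired analysis was possible because naive and injured are 1 library each. Kcnj5 lost its call with a Tac2 minimum of 5 (adjusted p = 0.0753). The naive share of 2.50% was 1.67% after thinning, 4.40% with a Tac2 minimum of 1, 1.85% with 3, 0.974% with 5, 3.73% with at least 5 inhibitory UMIs and 3.69% where Y-linked but no Xist UMIs were found. The injured share of 4.16% was 2.17%, 5.97%, 2.91%, 1.25% and 6.36% under the first 5 of these. Genes with a ratio of at least 1.5, 44, numbered 80 with TMM scaling, 163 in nuclei with Xist alone, 198 in those with Y-linked UMIs alone, 20 with a Tac2 minimum of 1 and 67 with 3; those at 1/1.5 or below, 42, numbered 23, 128, 157, 25 and 76. Log2 ratios changed sign with Y-linked UMIs alone for Npas3 (-0.22), Slc24a2 (-0.57), Cfap36 (-0.68) and Cntnap5c (1.13), with Xist alone for Fbxo36 (0.11), with a Tac2 minimum of 1 for Grin2a (-0.053), Slc24a2 (-0.22) and Opcml (-0.073), without the 10% of nuclei with most UMIs for Cntnap5c (0.056) and Nrg1 (0.090), and within cluster 5 for Cntnap5c (0.16) and Nrg1 (0.023). With 54 and 80 nuclei, a gene at 0 in members can stand at up to 2.44 CPM, and many listed peptides and receptors had under 20 UMIs.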

Other observations

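Some sets tested in members and reference have not been described above. Of 16 tested Hox genes, which set the position of a neuron along the cord, 1 was higher and 1 lower. This is near the shares over all genes, 5.59% higher and 6.15% lower. Hoxb6 was higher, at 154 and 101 CPM in naive and injured members against 101 and 81.1 CPM (log2 fold change 0.42, edgeR adjusted p = 0.0192). Hoxa9 was lower (-0.65). No Hox gene was called in DESeq2, with a Tac2 minimum of 1 or 5, or with at least 5 inhibitory UMIs. Of 17 steroid and nuclear receptors, the progesterone receptor gene Pgr (0.80) and the thyroid hormone receptor gene Thrb (0.41) were higher beside Rorb. The glucocorticoid receptor gene Nr3c1 (11.0 and 5.16 against 31.4 and 31.4 CPM, -2.12), the mineralocorticoid receptor gene Nr3c2 (-0.78) and Esrrg (-1.09) were lower. Pgr did not pass against the reference with the same limits on Pdyn, Gal and Alk (adjusted p = 0.302).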
